A study of Mus musculus with 9 samples.

Results

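The DEAD and DEAH box RNA helicases of mouse macrophages were followed across a bacterial stimulus and an inhibitor of ATP-citrate lyase. Members were all listed genes whose symbol begins with Ddx or Dhx and a number, apart from Ddx58 and Dhx58, which were left out. This gave 47 of the 12204 listed genes, 32 of them Ddx and 15 Dhx, all annotated as protein-coding, and all 47 passed the filter on low values. Of the symbols that meet the same rule in the reference, Ddx4, Ddx25, Ddx43, Ddx59 and Dhx58os were not among the listed genes.

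The cells were bone marrow-derived macrophages of the strain C57/Bl6J, differentiated for 6 days in medium with 20% supernatant of L929 cells, which supplies macrophage colony-stimulating factor. Untreated cells (UT) received nothing further. The LPS cells received lipopolysaccharide, a bacterial cell wall component sensed by Toll-like receptor 4, at 10 ng/ml for 4 h. The LPS + BMS cells received 50 µM BMS303141, which blocks ATP-citrate lyase, for 1 h and then the same LPS. Each of the 3 groups had 3 libraries made from 3′ ends of messenger RNA. No library had the inhibitor alone, and the labels name no vehicle. They also do not tell separate animals or cultures apart, so the p-values reflect variation among libraries that may be technical.

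DEAD and DEAH box proteins are named after the amino acids Asp-Glu-Ala-Asp or Asp-Glu-Ala-His in the motif that binds and hydrolyses ATP. They use ATP to open short RNA duplexes or to strip proteins from RNA. Most serve housekeeping steps, such as ribosome assembly in the nucleolus, splicing, export of mRNA through the nuclear pore, translation and mRNA decay. A few take part in defence against viruses: Ddx60 is induced by type I interferon, which macrophages make after LPS.

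All 8 macrophage markers examined, among them Csf1r and Adgre1, were listed. Their summed level was 8010 to 8680 CPM (read counts scaled to a fixed library total) in untreated, 3990 to 4870 in LPS and 4750 to 4830 in LPS + BMS libraries. Lyz2, which encodes lysozyme, makes up most of this sum. Singly 6 of the 8 fell with LPS and Adgre1 did not pass (0.07, adjusted p = 0.692, limma). Cd14, the LPS co-receptor, rose by 1.8 on average. It went from 7.16, 7.25 and 6.71 to 7.86, 9.38 and 9.28 log2 CPM, with LPS replicate 1 well below the others. Markers of mast cells, erythroid cells and dendritic cells were not in the table, and the listed ones of lymphocytes (2 of 7) and stromal cells (3 of 5) summed to at most 8.67 and 13.7 CPM. The stromal marker Pdgfrb rose from -2.85, -2.77 and -2.33 to 3.10, 3.07 and 1.96 log2 CPM with LPS (5.36, adjusted p = 1.91e-06, limma). Its untreated values lie below the filter level of 0 log2 CPM, so the size of the rise is imprecise. With the inhibitor Pdgfrb did not pass (-1.34, adjusted p = 0.244, limma). The other listed lymphocyte and stromal markers passed in neither comparison. Of 6 neutrophil markers S100a8 and S100a9 were listed, summing to 7.81 to 29.6 CPM in untreated, 33.9 to 60.9 in LPS and 172 to 264 in LPS + BMS libraries. Most of it is S100a8, which rose in both comparisons (2.17 and 2.29), whereas S100a9 passed in neither (-0.43 and 0.49). The sums move with the groups, and their part in the results was not tested. Value steps corresponded to about 1830000 to 5050000 reads per library, LPS replicate 1 being the shallowest, with about 26.8 reads at its median gene. In a bulk sample, fewer cells of a type and less RNA per cell cannot be told apart.

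Ddx60 had the largest rise with LPS and was the only member called with the inhibitor, so its promoter is shown first. Sites for interferon-activated factors contain spaced GAAA repeats, and the core GAAANNGAA was searched on both strands in RefSeq promoters (GRCm38.p6; windows of equal length around each start site). It was found in 7 of the 42 members with a promoter in that collection (16.7%), against 9.76% of all 27025 genes there. Ddx11, Ddx23, Ddx39, Ddx6 and Dhx38 had no entry. The promoter of Ddx60 held 2 matches in the same orientation, starting 53 and 19 bases before its start site. Only 0.736% of genes had a promoter with at least 2, and no other member did. The stretches below run 5′ to 3′ on the gene's strand, end before the start site, and carry the match in capitals. Those of Ddx51, which acts in ribosome assembly, and Ddx17, a transcription cofactor, are examples of members with 1 match.
Ddx60 (chr8:61928014-61928086, plus strand): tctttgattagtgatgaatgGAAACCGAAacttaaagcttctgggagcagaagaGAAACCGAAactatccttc
Ddx51 (chr5:110653352-110653400, plus strand): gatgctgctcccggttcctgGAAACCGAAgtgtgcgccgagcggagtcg
Ddx17 (chr15:79546839-79546887, minus strand): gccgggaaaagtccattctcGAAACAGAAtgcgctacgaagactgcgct
The other members with a match were Ddx27, Ddx49, Dhx30 and Dhx37. That of Dhx37, starting 44 bases before its start site, is the same string as in Ddx60 on the opposite strand. Of the 7, Ddx60 was the only one called in either comparison. A match is a string of letters and not a known binding site, and overlap with other motifs was not examined.

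In resting macrophages the members spanned a wide range of levels. The values are log2 CPM counted at transcript 3′ ends, so they do not scale with transcript length. Ddx5, a cofactor of transcription and microRNA processing, was highest at 8.83 ± 0.06 log2 CPM in untreated cells (SD, n = 3). Ddx6, a repressor of translation that promotes decapping, followed at 8.22 ± 0.13, Ddx17, the paralogue of Ddx5, at 8.20 ± 0.06, and Ddx3x, which assists translation initiation, at 7.97 ± 0.01 (SD, n = 3). Ddx6 and Ddx17 did not differ beyond their spread. The lowest was Dhx35, a spliceosome protein, at 1.57 ± 0.37 log2 CPM (SD, n = 3). Of the 47 members 38 had a mean over all libraries above the median of listed genes, 3.80 log2 CPM. Together they took 0.366% to 0.414% of the listed CPM in each of the 9 libraries, and the ranges of the 3 groups met or overlapped.

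LPS left the top of this order to Ddx5 but exchanged the next places. Ddx21, a nucleolar helicase, moved from the sixth place to the second, at 8.41 ± 0.10 log2 CPM, and Ddx6 from the second to the sixth, at 7.81 ± 0.20 (SD, n = 3). With LPS + BMS the second and the third places belonged to Ddx21, at 8.25 ± 0.09, and Ddx17, at 8.19 ± 0.09 (SD, n = 3), which did not differ beyond their spread.

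LPS for 4 h changed a minority of the helicases, mostly by less than 2-fold. Of 47 members 7 rose and 6 fell at an adjusted p under 0.05 (limma, all 12196 tested genes in the adjustment). That is 27.7% of members, beside 47.0% of all tested genes. By direction, 14.9% of members rose and 12.8% fell, beside 21.5% and 25.4% of tested genes. The risers were Ddx60, Ddx56, Ddx21, Ddx39, Ddx18, Ddx10 and Dhx15, and those that fell were Dhx34, Ddx11, Dhx57, Dhx32, Ddx55 and Ddx6. Only Ddx60, Dhx34 and Ddx11 were called with a change of at least 2-fold, 6.38% of members beside 27.1% of tested genes. The median absolute change was 0.24 log2 units over the members and 0.60 over the tested genes. In the more abundant part of the table, where the mean is not below the median gene's, 10 of 38 members were called (26.3%), beside 54.9% of 6102 tested genes.

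Groups that do not overlap, a looser description, were found for 9 members with LPS above untreated (19.1%, beside 23.7% of tested genes) and 10 members with LPS below (21.3%, beside 28.9%). For 36 of 47 members the 95% interval of the change lay wholly within 1 log2 unit of 0, against 38.6% of tested genes.

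**Figure D1:**
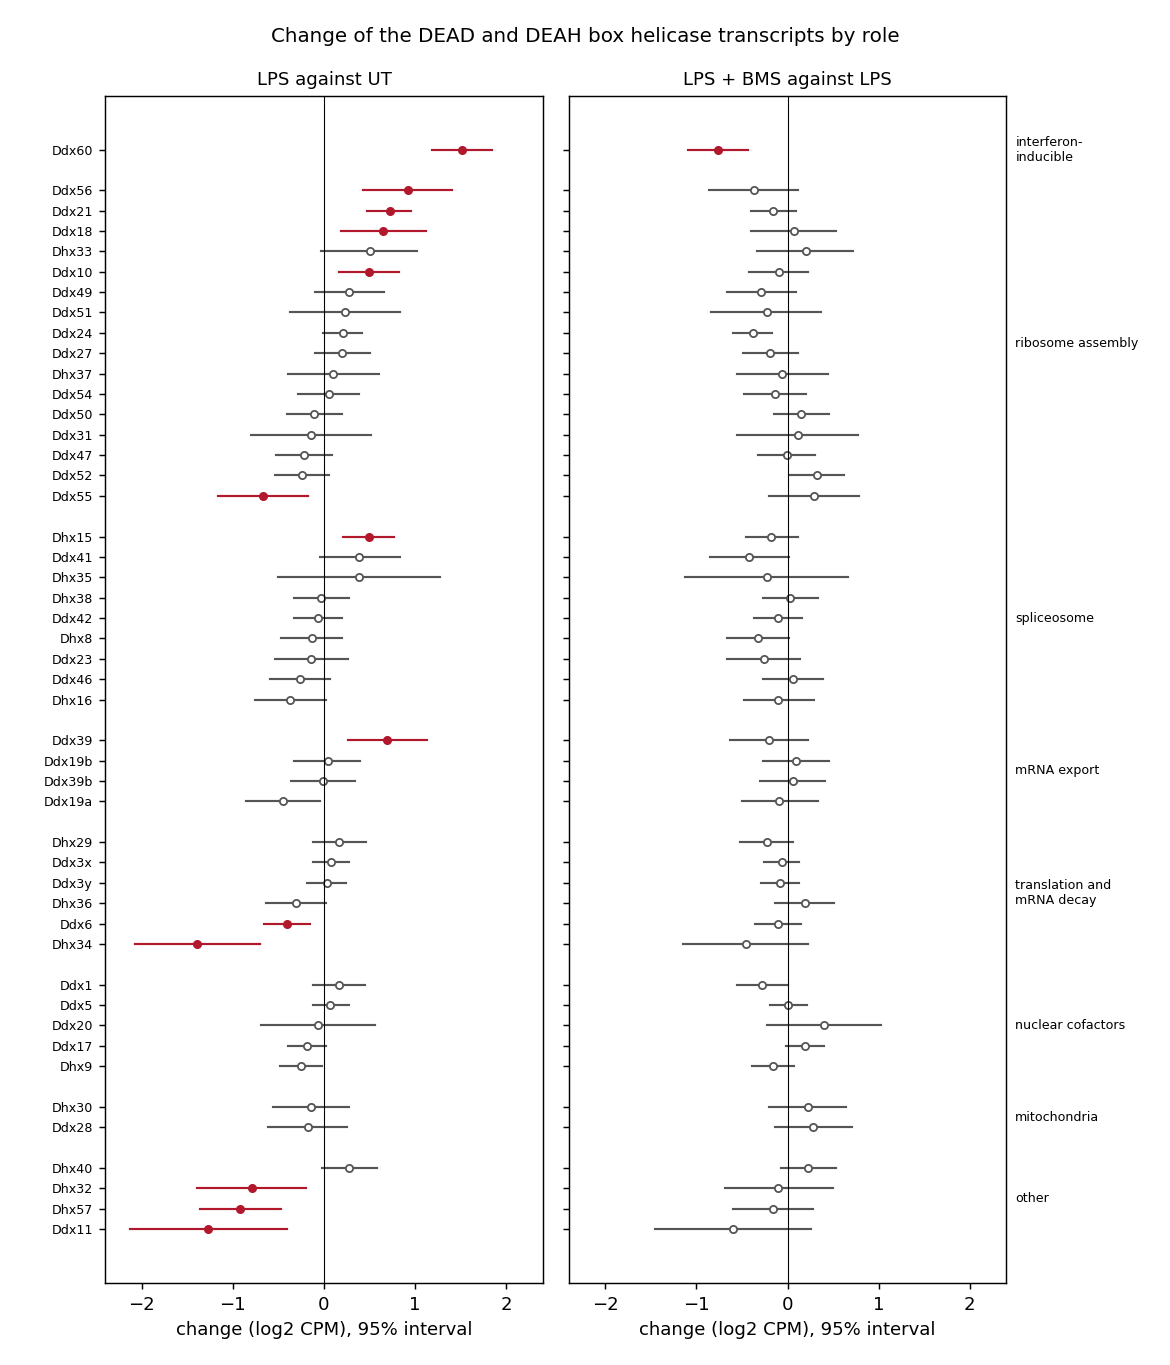
Change of each of the 47 members (rows, grouped by role) on the x axis in log2 CPM with its 95% interval, for LPS against UT (left) and LPS + BMS against LPS (right). Filled red points passed the test at an adjusted p under 0.05: 13 members on the left, and Ddx60 alone on the right.

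Ddx60, the interferon-inducible member (ENSMUSG00000037921, chromosome 8, 61928087 to 62038244 in GRCm38, plus strand), had the largest rise. It stood at 4.29, 4.35 and 4.19 log2 CPM in the untreated libraries and at 5.60, 5.90 and 5.87 in the LPS libraries. The lowest LPS library lay above the highest untreated one by over 1 log2 unit. The rise was 2.86-fold, 1.51 on the log2 scale (SE 0.15, adjusted p = 2.48e-06, limma), and was called under all 17 alternative settings.

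Helicases of ribosome assembly, the largest role group with 16 members, gave 4 risers and 1 that fell, beside 21.5% and 25.4% of tested genes. Their median change was 0.20 log2 units, beside -0.06 for all tested genes. Ddx21, which acts in ribosomal RNA transcription and processing (chromosome 10, 62580251 to 62602281, minus strand), was at 7.66, 7.89 and 7.53 log2 CPM in untreated and 8.52, 8.33 and 8.38 in LPS libraries. All LPS libraries stood above all untreated ones, a rise of 0.72 (SE 0.11, adjusted p = 0.000168, limma). Ddx50, its nucleolar paralogue, lies 13613 bases away on the same chromosome. Its values were 5.65, 5.57 and 5.39 in untreated and 5.41, 5.50 and 5.38 log2 CPM in LPS libraries, which overlap (-0.11, 95% interval -0.41 to 0.20). The difference between the paralogues' changes was not tested.

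Ddx56, needed for the large ribosomal subunit, stood at 3.27, 3.28 and 3.42 log2 CPM in untreated and 4.53, 4.39 and 3.81 in LPS libraries. The groups did not overlap, although LPS replicate 3 lay lower than the other two, and the rise was 0.92 (SE 0.22, adjusted p = 0.0044, limma). Ddx18, also of the large subunit pathway, went from 3.85, 3.79 and 3.30 to 4.12, 4.35 and 4.44 log2 CPM, a rise of 0.65 (SE 0.22, adjusted p = 0.0241, limma). This call was lost without LPS replicate 2 (adjusted p = 0.0584), LPS replicate 3 (0.0821) or untreated replicate 3 (0.0946, limma).

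Ddx10, which acts early in small subunit assembly, went from 6.61, 6.47 and 6.20 to 7.08, 6.72 and 6.94 log2 CPM. Again no LPS library overlapped an untreated one, with a rise of 0.49 (SE 0.15, adjusted p = 0.0184, limma). It was not called without LPS replicate 3 (adjusted p = 0.0546) or untreated replicate 3 (0.0753), nor without a mean trend in the variance (0.0583, limma).

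Ddx55, another large subunit helicase, was the member of this group that fell. Its values were 4.29, 4.62 and 3.98 log2 CPM in untreated and 3.65, 3.27 and 3.99 in LPS libraries. LPS replicate 3 reached the lowest untreated library, so the groups overlapped, and the change was -0.67 (SE 0.23, adjusted p = 0.0278, limma). The call ended without LPS replicate 2 (adjusted p = 0.112), untreated replicate 1 (0.0586) or untreated replicate 2 (0.128, limma). It also ended with centring on ribosomal protein genes (0.0869) and with only the groups compared (0.0527, limma). The other 11 members of the group did not pass, from -0.24 for Ddx52 to 0.50 for Dhx33.

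Other ribosome assembly factors give the setting of these helicases. The list held 51 tested genes that are not members, among them snoRNP proteins, subunits of RNA polymerase I and the transcription factor Myc. Of the 51, 29 rose and 2 fell (56.9% higher, beside 21.5% of tested genes). The median was 0.55 log2 units. The 29 that rose became 20 without untreated replicate 3 and 22 without LPS replicate 3 or untreated replicate 2. Without any other library they were at most 26, and with weights per library 31. The 2 that fell became 5 without LPS replicate 1, and 1 without LPS replicate 2 or 3 or untreated replicate 1 or 2. The 2 with the smallest p were Rcl1, which acts in small subunit processing, and Rrs1, a large subunit assembly factor. Rcl1 rose from 4.42, 4.35 and 4.49 to 8.05, 8.03 and 8.11 log2 CPM (3.64, SE 0.10, adjusted p = 9.55e-12, limma). Rrs1 rose from 4.42, 4.01 and 3.98 to 6.31, 6.36 and 6.19 (2.15, SE 0.16, adjusted p = 1.3e-07, limma). Both exceeded the rise of every ribosome assembly helicase, of which Ddx56 was the largest at 0.92. The Myc transcript, whose protein drives many of these genes, went from 2.36, 2.37 and 2.46 to 2.54, 2.07 and 2.07 log2 CPM. The change was -0.17 (SE 0.43, adjusted p = 0.772, limma), imprecise at this low level. The canonical site of the Myc protein is the palindrome CACGTG. It was found in the promoters of 5 of 42 members (11.9%, beside 8.09% of genes). These were Ddx5, Ddx42, Dhx33, Dhx35 and Dhx40, none of which was called. Whether Myc has a part in the rises was not tested.

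Among 9 spliceosome helicases 1 rose, Dhx15, and none fell, beside 21.5% and 25.4% of tested genes. Dhx15 releases the spliced-out intron lariat from the spent spliceosome. It went from 7.05, 7.0 and 7.13 to 7.82, 7.30 and 7.52 log2 CPM without overlap, a rise of 0.49 (SE 0.13, adjusted p = 0.00745, limma). The others ranged from -0.37 for Dhx16 to 0.39 for Ddx41 and Dhx35, and only Dhx15 had an unadjusted p under 0.05. DEAH proteins are activated by partners with a G-patch, a glycine-rich segment. Of 21 such genes 5 rose (23.8%) and 3 fell, near the 21.5% and under the 25.4% of tested genes, with a median of -0.09. Only 3 rose without LPS replicate 3 or untreated replicate 2, and 2 without untreated replicate 3. Pinx1, a nucleolar partner of Dhx15, rose by 0.99 (SE 0.19, adjusted p = 0.000782, limma). Rbm5, a splicing regulator, fell by 0.62 (SE 0.11, adjusted p = 0.000286, limma).

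In mRNA export, Ddx39 and not its paralogue Ddx39b was called; both proteins belong to the complex that loads export factors onto mRNA. Ddx39, now named Ddx39a, was at 5.13, 5.29 and 5.84 log2 CPM in untreated and 6.50, 5.79 and 6.04 in LPS libraries, with LPS replicate 2 just below untreated replicate 3. The rise of 0.69 (SE 0.20, adjusted p = 0.0123, limma) was not called without untreated replicate 1 (adjusted p = 0.0557) or 2 (0.0523, limma). Its 3′ end overlaps Adgre5 on the opposite strand, and the strand setting of the counting is not given, so reads may be shared; Adgre5 fell by 1.78 (SE 0.36, adjusted p = 0.00108, limma). Ddx39b was at 5.49, 5.43 and 5.64 in untreated and 5.73, 5.35 and 5.47 log2 CPM in LPS libraries (-0.01, 95% interval -0.36 to 0.34). The difference between the pair was not tested.

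The neighbouring genes Ddx19a and Ddx19b, 5387 bases apart on chromosome 8, encode helicases that release mRNA at the cytoplasmic face of the nuclear pore. Ddx19a stood at 5.77, 5.98 and 6.41 log2 CPM in untreated and 5.95, 5.31 and 5.56 in LPS libraries, which overlap (-0.45, 95% interval -0.86 to -0.04, adjusted p = 0.0702, limma). Ddx19b stood at 4.84, 4.76 and 4.42 and at 4.81, 4.62 and 4.70 (0.04, 95% interval -0.33 to 0.40). Neither passed. Of 15 tested export partners 5 rose (33.3%) and none fell, beside 21.5% and 25.4% of tested genes, with a median of 0.40. The 5 became 2 without LPS replicate 2 and 3 without untreated replicate 2 or 3, and 1 partner was called lower without LPS replicate 1. Poldip3, an adaptor of the export complex, had the smallest p and rose by 0.70 (SE 0.15, adjusted p = 0.00215, limma).

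Among 6 helicases of translation and mRNA decay 2 fell and none rose, beside 25.4% and 21.5% of tested genes. Dhx34, a factor of nonsense-mediated decay, was at 3.17, 3.45 and 2.89 log2 CPM in untreated and 1.75, 2.07 and 1.52 in LPS libraries. The groups were well apart, a fall of 2.62-fold or 1.39 on the log2 scale (SE 0.32, adjusted p = 0.00279, limma). The LPS values rest on about 6.19 to 12.5 reads, so the size is imprecise, but the call held under the 16 alternatives that could test it. Ddx6 went from 8.13, 8.16 and 8.36 to 7.58, 7.96 and 7.90 log2 CPM without overlap (-0.41, SE 0.12, adjusted p = 0.0127, limma). The Ddx6 call ended without untreated replicate 3 (adjusted p = 0.052), with centring on ribosomal protein genes (0.128) and without a mean trend (0.0533, limma).

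The other 4 members of this group did not pass, among them Dhx29, which helps the small subunit scan structured leaders (0.17), and Dhx36, which unwinds G-quadruplexes (-0.31).

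Decay partners of Ddx6 did not share one direction. Of 11 tested, 2 rose (18.2%) and 1 fell, beside 21.5% and 25.4% of tested genes, with a median of 0.26. Dcp2, the decapping enzyme, rose by 1.09 (SE 0.15, adjusted p = 4.16e-05, limma) and Dcp1a, its activator, by 1.78 (SE 0.44, adjusted p = 0.00477, limma). Dcp1a went from 0.30, 0.45 and -0.87 to 1.17, 2.07 and 1.96 log2 CPM, so the size of its rise is imprecise at this low level. The exonuclease Xrn1, which degrades decapped mRNA and was named after its value was seen, fell by 0.43 (SE 0.12, adjusted p = 0.00887, limma), a call that ended with ribosomal centring (adjusted p = 0.168, limma).

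The X- and Y-linked pair Ddx3x and Ddx3y varied little; both assist translation initiation. Ddx3x lay at 7.97, 7.98 and 7.96 log2 CPM in untreated and 7.99, 8.11 and 8.05 in LPS libraries (0.08, 95% interval -0.12 to 0.28). Ddx3y lay at 7.12, 7.23 and 7.21 and at 7.22, 7.20 and 7.21 (0.03, 95% interval -0.19 to 0.24). Both intervals lie well within 1 log2 unit of 0. The longest identical run in the last 500 bases of the 2 transcripts was 19 bases, and over all 5 paralogue pairs examined it was 9 to 26.

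No nuclear cofactor passed the test with limma among 5, and Dhx9 alone had an unadjusted p under 0.05. Ddx5 was at 8.83, 8.77 and 8.90 log2 CPM in untreated and 8.90, 8.91 and 8.91 in LPS libraries (0.07, 95% interval -0.12 to 0.27). Ddx17 was at 8.15, 8.27 and 8.19 and at 7.99, 7.94 and 8.10, all lower with LPS, but the change of -0.19 did not pass (adjusted p = 0.123, limma). Ddx20, which belongs to the SMN complex that assembles spliceosomal snRNPs, was at -0.07 (95% interval -0.69 to 0.56). Of its 6 tested partners 2 rose (33.3%, beside 21.5% of tested genes), Strap (0.61, SE 0.19) and Gemin7 (0.43, SE 0.14). Strap was not called without LPS replicate 2 (adjusted p = 0.0838), nor Gemin7 without LPS replicate 1 (0.0845), untreated replicate 1 (0.0535) or untreated replicate 2 (0.0633, limma). Neither mitochondrial helicase passed. Dhx30, which acts on mitochondrial ribosomes, stood at 5.0, 4.60 and 4.58 log2 CPM in untreated and 4.19, 4.86 and 4.70 in LPS libraries, with overlap.

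Of the 4 members outside these roles 3 fell, beside 25.4% of tested genes, and the calls of Ddx11 and Dhx32 among them depend on single libraries. Dhx57 went from 4.99, 4.93 and 5.31 to 4.49, 4.07 and 3.91 log2 CPM without overlap (-0.92, SE 0.21, adjusted p = 0.00243, limma). Ddx11, a DNA helicase of sister chromatid cohesion, went from 2.54, 2.30 and 2.18 to 1.48, 1.09 and 0.64 log2 CPM (-1.27, SE 0.40, adjusted p = 0.0183, limma). In LPS libraries this is about 4.98 to 6.33 reads, and the call was lost without LPS replicate 3 (adjusted p = 0.0682) or untreated replicate 1 (0.0705) or 2 (0.0526, limma). Dhx32 went from 3.21, 3.20 and 3.75 to 2.54, 2.56 and 2.68 (-0.79, SE 0.28, adjusted p = 0.0309, limma).

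The call of Dhx32 ended without LPS replicate 1 (adjusted p = 0.0504), LPS replicate 2 (0.0659), LPS replicate 3 (0.0537) or untreated replicate 3 (0.124), and with ribosomal centring (0.0999, limma). Its 3′ end overlaps Bccip on the opposite strand, which was at -0.35 (SE 0.16, adjusted p = 0.0858, limma). Dhx40 did not pass, with 5.34, 5.36 and 5.44 log2 CPM in untreated and 5.79, 5.39 and 5.80 in LPS libraries.

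**Figure D2:**
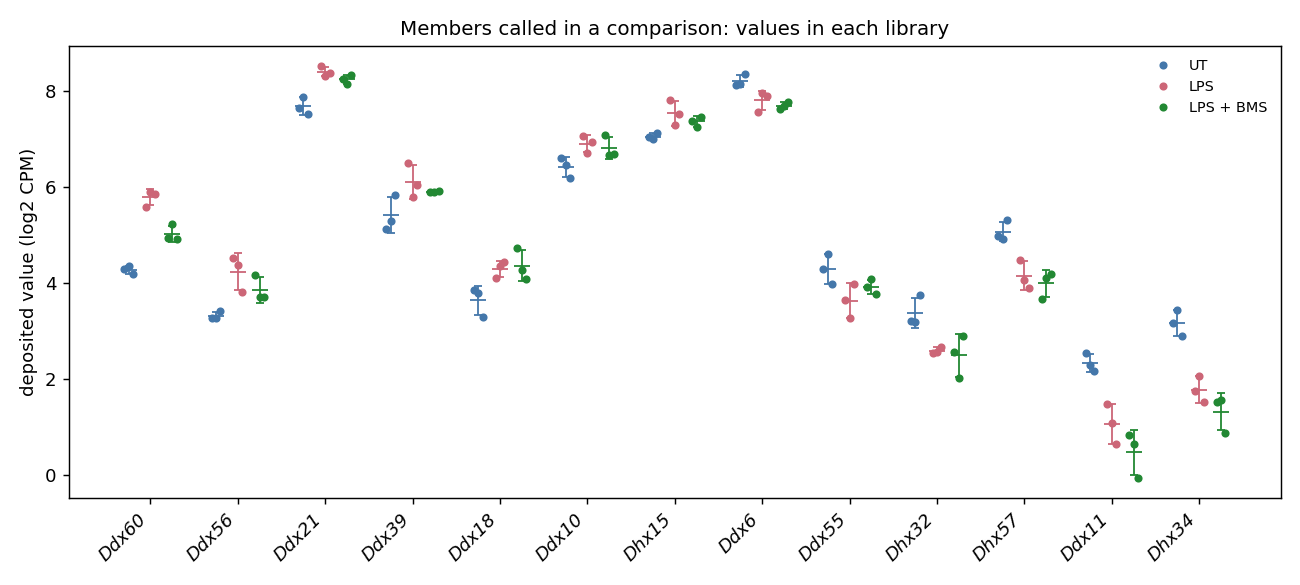
Deposited log2 CPM (y axis) of the 13 members called in a comparison (x axis, from the largest rise with LPS to the deepest fall), with a point per library coloured by group, the mean as a horizontal bar and the SD as a vertical one. For Ddx60 the LPS + BMS libraries, at 4.94, 5.23 and 4.93, lie between the other groups.

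BMS303141 given before LPS lowered 1 helicase transcript, Ddx60, and none was called higher. Ddx60 was at 4.94, 5.23 and 4.93 log2 CPM with LPS + BMS. All 3 libraries lay below the LPS libraries and above the untreated ones. Relative to LPS alone the fall was 1.69-fold, or 0.76 on the log2 scale (95% interval -1.09 to -0.43, adjusted p = 0.0188, limma). The call ended without LPS replicate 2 (adjusted p = 0.0729), LPS replicate 3 (0.0782), LPS + BMS replicate 1 (0.106) or LPS + BMS replicate 3 (0.11), and without a mean trend (0.0653, limma). In these fits the change itself stayed between -0.76 and -0.71. Without LPS replicate 1, the shallowest library, it was -0.86 (adjusted p = 0.0116, limma).

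This single call is 2.13% of members, beside 2.12% of all tested genes, so the helicases were not called more often than genes in general. By direction the background was 0.959% of tested genes higher and 1.16% lower. Unadjusted, 3 members had a p under 0.05 (6.38%, beside 14.9% of tested genes): Ddx60, Ddx24 and Ddx52. Groups did not overlap for 3 members with the inhibitor above LPS (Ddx17, Ddx52 and Dhx40; 6.38%, beside 10.1% of tested genes). They did not overlap for 6 members with it below (Ddx24, Ddx3y, Ddx49, Ddx60, Dhx29 and Dhx9; 12.8%, beside 11.2%). The median change was -0.10 over the members and 0.00 over the tested genes. For 42 of 47 members (89.4%) the 95% interval lay wholly within 1 log2 unit of 0, beside 63.7% of tested genes.

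No role group apart from Ddx60 itself gave a call. Spliceosome helicases had a median change of -0.18, from -0.42 for Ddx41 to 0.06 for Ddx46. Ribosome assembly helicases had a median of -0.08, from -0.38 for Ddx24 to 0.32 for Ddx52. Ddx28 and Dhx30 of the mitochondria were at 0.28 and 0.22.

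Ddx24, a nucleolar helicase of large subunit assembly, came nearest to a call after Ddx60 and is named after its value was seen. It was at 7.62, 7.73 and 7.85 log2 CPM in untreated, 8.0, 7.95 and 7.88 in LPS, and 7.56, 7.51 and 7.59 in LPS + BMS libraries. The inhibitor libraries lay below all others, with a change from LPS of -0.38 (SE 0.10, adjusted p = 0.0687, limma). Of 17 alternatives 16 gave no call either, with an adjusted p of up to 0.219 without a library (limma). Only weights per library gave a call (adjusted p = 0.0154, limma), the setting with 407 higher and 407 lower calls over all genes.

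For the members that LPS had changed, the inhibitor comparison shares the LPS libraries, so its values are only set beside the earlier ones. Ddx21 was at 8.25, 8.16 and 8.35 log2 CPM with LPS + BMS, still above every untreated library (-0.16 from LPS, 95% interval -0.40 to 0.09). Ddx56 was at 4.18, 3.71 and 3.71 (-0.37, 95% interval -0.86 to 0.11). Dhx15 was at 7.39, 7.26 and 7.47 (-0.18, 95% interval -0.46 to 0.11). Each of the 3 had its LPS + BMS libraries above all untreated ones, as 9 of 47 members did (19.1%, beside 27.2% of tested genes), while 13 members lay below (27.7%, beside 32.2%).

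Ddx10, Ddx18 and Ddx39 likewise kept LPS + BMS libraries above the untreated ones, at 7.09, 6.68 and 6.69, at 4.73, 4.28 and 4.09, and at 5.90, 5.91 and 5.92 log2 CPM. Among those lowered by LPS, Dhx34 was at 1.52, 1.56 and 0.88 (-0.46, 95% interval -1.15 to 0.22) and Dhx57 at 3.68, 4.12 and 4.19 (-0.16, 95% interval -0.60 to 0.28). Both remained below every untreated library with the inhibitor present. Ddx11 was at 0.83, 0.64 and -0.05, Dhx32 at 2.56, 2.02 and 2.91, and Ddx6 at 7.64, 7.69 and 7.78, again below all untreated libraries. Ddx55, at 3.92, 4.08 and 3.78 log2 CPM, overlapped both other groups (0.29 from LPS, 95% interval -0.20 to 0.78).

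Abundant members that did not pass with LPS did not pass with the inhibitor either. Ddx5 was at 8.84, 9.02 and 8.90 log2 CPM with LPS + BMS (0.01 from LPS, 95% interval -0.19 to 0.21) and Ddx3x at 8.03, 7.98 and 7.95 (-0.06, 95% interval -0.26 to 0.13). Ddx3y was at 7.08, 7.20 and 7.12, with its highest library just below the LPS ones (-0.08, 95% interval -0.29 to 0.13). Ddx17 was at 8.14, 8.14 and 8.30, above all LPS libraries, with a change of 0.19 (95% interval -0.02 to 0.40) that did not pass. The paralogues Ddx50, at 5.77, 5.61 and 5.37, and Ddx39b, at 5.27, 5.66 and 5.78, overlapped the LPS libraries. So did Ddx19a, at 5.52, 5.38 and 5.66, Ddx19b, at 4.59, 4.94 and 4.88, and Dhx30, at 4.76, 4.91 and 4.76 log2 CPM. Dhx40 was at 5.84, 5.93 and 5.89, above the LPS libraries but with a change of 0.23 (95% interval -0.07 to 0.53) that did not pass.

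None of the 51 ribosome assembly partners was called with the inhibitor by limma, and their median was -0.07. With weights per library 2 were called higher and 2 lower. Unadjusted, 6 had a p under 0.05, beside 14.9% of tested genes. Rcl1 was at 8.41, 8.40 and 8.46 log2 CPM (adjusted p = 0.0903) and Rrs1 at 5.69, 6.07 and 5.73 (adjusted p = 0.191, limma). The G-patch, decay, export and SMN complex partners gave no call either. An unadjusted p under 0.05 was found for 2 of 21, 2 of 11, 2 of 15 and 1 of 6, beside 14.9% of tested genes. Dcp2 was closest, going from 6.07, 5.94 and 5.89 with LPS to 5.33, 5.50 and 5.25 (-0.61, SE 0.15, adjusted p = 0.0515, limma), and 1 or 2 decay partners were called lower under 5 of the alternatives, including 1 without untreated replicate 3.

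RNA helicases that carry other names held another transcript called in the same directions as Ddx60. Of 20 tested, LPS raised 7 and lowered 2, beside 21.5% and 25.4% of tested genes, with a median of 0.33. The counts were 4 higher without LPS replicate 2 and 4 lower without LPS replicate 1. With the inhibitor 1 was called lower, beside 1.16% of tested genes. That one was Znfx1, an interferon-inducible sensor of RNA, at 6.85, 6.95 and 7.0 log2 CPM untreated, 8.03, 7.72 and 7.86 with LPS, and 7.44, 7.39 and 7.31 with LPS + BMS. It rose by 0.93 (SE 0.11) and fell by 0.49 (SE 0.11, adjusted p = 0.0349, limma), with no overlap between any groups. The inhibitor call of Znfx1 ended under 10 of 17 alternatives. It was lost without any 1 LPS + BMS replicate (adjusted p from 0.111 to 0.18), LPS replicate 1 (0.0647) or 3 (0.0997) or untreated replicate 2 (0.0626, limma), and with the replicate number as a block (0.0717, limma). Ifih1, which encodes the RNA sensor MDA5, rose by 3.22 with LPS (SE 0.16). With the inhibitor it was at 7.89, 7.98 and 7.76 against 8.17, 8.50 and 8.36 log2 CPM, which did not pass (-0.47, SE 0.16, adjusted p = 0.182, limma).

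**Figure D3:**
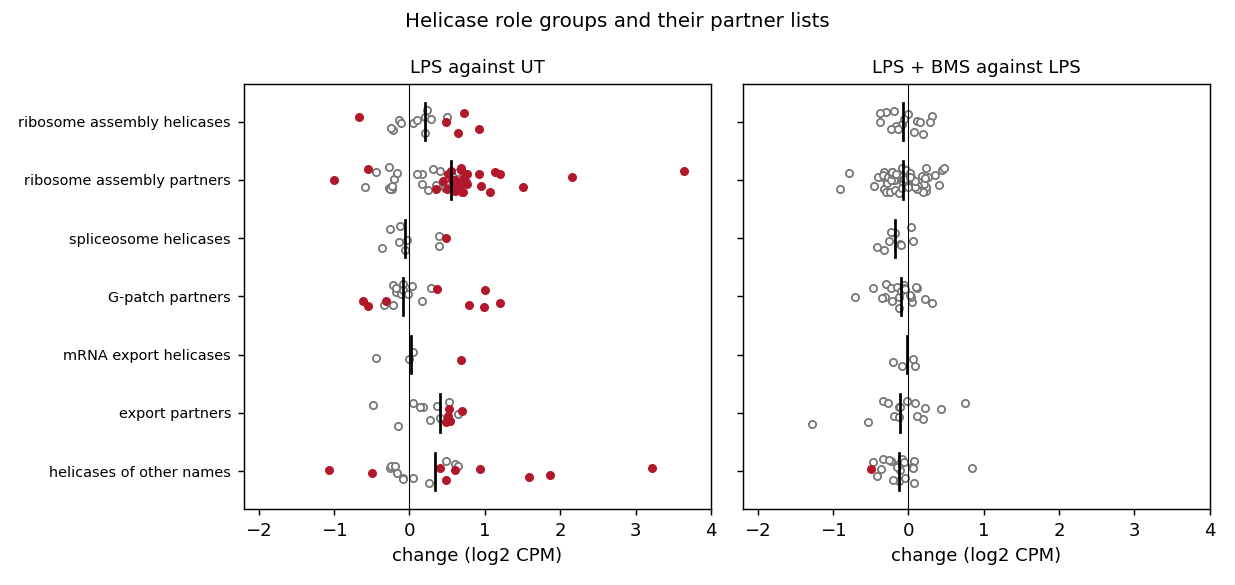
Change in log2 CPM (x axis) of each gene in 3 helicase role groups, their partner lists and RNA helicases of other names (rows), for LPS against UT (left) and LPS + BMS against LPS (right). Filled red points passed the test and black bars mark medians, which with LPS are 0.20 for ribosome assembly helicases and 0.55 for their partners.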

How the data were processed

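Per the submitters' processing notes, the tools were featureCounts 1.5.1, STAR 2.5.2b, edgeR, limma and MultiQC with the genome GRCm38 (mm10). Their roles, the annotation, any gene filter and the strand setting are not given in those notes or labels. Per the labels' protocols, libraries were made from 100 ng RNA with the QuantSeq forward 3′ kit and 16 PCR cycles, and no molecular identifiers are named. The deposited values are a score in log2 units, here read as quantile-normalised log2 CPM because back-transformed libraries total 987471 to 987498. Such scaling hides a change shared by most transcripts. Approximate depth came from the steps between the lowest distinct values (numbers 5 to 40).

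Symbols were found for 12181 of 12204 identifiers; positions are those of GENCODE M21 (GRCm38). Genes reaching a log2 CPM of 0 in 3 or more libraries (12196) entered 1 limma 3.58.1 fit (R 4.3.3; a mean per group, mean trend, two-sided, Benjamini-Hochberg adjustment, threshold 0.05). SE and 95% intervals come from that fit. The same code was run on simulated counts, scored only for LPS + BMS against LPS. Its libraries were drawn independently, so the run cannot show how technical replicates or the LPS against UT comparison behave. Alternatives changed the filter, centring, variance trend, library weights, replicate block, groups fitted or left out a library. Members, role groups and lists were chosen with earlier results of these data known. Values per library are given for called members, the most abundant of each role, and paralogue pairs; of each partner list the 2 called genes with the smallest p may be named. Protein sequences were not used here.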

Additional observations from a re-analysis of the deposited data

How the results depend on the processing

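The counts of called members, the changes of the called members and Ddx24, the partner list counts and the called genes named beside them were recomputed under 17 alternatives, 9 of which leave out a library. Other values were not recomputed. Of 13 members called with LPS, 6 (Ddx21, Ddx56, Ddx60, Dhx15, Dhx34 and Dhx57) were called under every alternative that could test them. Dhx34, Ddx11 and Dhx32 had no value under the stricter filter of 10 CPM, which left 40 members. Members rising with LPS numbered 6 to 9 under other settings and 5 to 7 without a library. Those falling numbered 3 with centring on ribosomal protein genes, 3 with the stricter filter, where fewer members were tested, 10 with weights per library, and 4 to 7 without a library; without LPS replicate 1 there were 7 and 7. In all 9 to 14 were called without a library. With the inhibitor 0 members were called without a mean trend, 2 with weights per library, both lower, and 0 to 1 without a library; why was not tested. Uncalled inhibitor changes reversed for Ddx18 (-0.01 with ribosomal centring, -0.02 with weights, -0.11 to 0.21 without a library), Dhx32 (-0.30 to 0.14 without a library) and Dhx57 (0.00 with weights, -0.28 to 0.01 without a library). Under ribosomal centring the median of all genes with LPS was 0.06 in place of -0.06, and higher calls made up 54.5% of all calls in place of 45.9%; with the inhibitor they made up 31.8% in place of 45.3%. Over all genes, inhibitor calls ranged from 27 higher and 35 lower without LPS + BMS replicate 3 to 407 and 407 with weights, around 117 and 141.

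With the replicate number as a block, 7 members rose and 6 fell with LPS and Ddx60 fell with the inhibitor, as without it (Ddx60 -0.76, adjusted p = 0.0343, limma). Same-numbered libraries did not deviate together more than others (r from -0.30 to 0.17 over 9 pairs, beside -0.21 to 0.29 for differently numbered ones). These values cannot show whether a number marks a shared animal or day, which the labels do not say. The block ended the inhibitor call of Znfx1 (adjusted p = 0.0717, limma). Low read numbers limit the precision for Dhx34 and Ddx11, and a low level limits it for Dcp1a, a decay partner of Ddx6.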
